A study of Mus musculus with 16 samples.

Results

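The genes described here are 51 components of DNA replication and of the supply of deoxynucleotides, out of 13652 genes in the count files. They were taken by name from a list covering origin licensing, helicase activation, DNA polymerases, clamp loading, strand joining and nucleotide synthesis. All 51 were matched by Entrez number and none was lost to a filter on low counts. The rule used no measured value.

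RNA-seq counted transcripts in AML246, a mouse acute myeloid leukaemia line kept in medium with IL-3, in 16 libraries from 8 groups of 2 replicates named A and B. Every group came from the same line, whose genotype the labels do not give, and the series title speaks of restoring and knocking down PU.1, which is the product of Spi1 and drives myeloid genes. Untreated cells (day 0), cells after 4, 8 and 12 days in 0.1 µg/mL doxycycline, and cells 4, 8 and 12 days after its removal at day 12 were sorted as total viable cells, and 1 more group at day 12 was sorted as viable Cd11b-high cells. All libraries after day 0 came from cells that were in doxycycline or had been in it. The last of them were taken on day 24 of the course. No untreated group was taken after day 0, so differences from day 0 cannot be told apart from effects of time in culture.

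Before a cell copies its DNA, the origin recognition complex together with Cdc6 and Cdt1 loads rings of the Mcm2 to Mcm7 helicase onto origins. In S phase the kinases Cdc7 and Cdk2, with Cdc45 and the GINS complex, turn these rings into moving helicases. Polymerase alpha with primase then starts each strand, polymerases delta and epsilon extend it with the sliding clamp Pcna, and ribonucleotide reductase, thymidine kinase and thymidylate synthase provide the building blocks. Many of these genes are known targets of E2F transcription factors and are used together in dividing cells.

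The libraries held 12962801 to 26509803 counts. Spi1 averaged 61.5 CPM (counts per TMM-scaled library size) at day 0, 222 at day 12 and 46.0 at 12 days off. It was at 186 CPM or above in all 8 libraries with doxycycline and at 66.3 or below in the other 8, so effects of the drug and of PU.1 cannot be told apart. The 15 mitochondrial genes took 6.85% of counts at day 0 and 2.07% to 3.30% in the other groups. Of 20 markers of other cell types, 11 were in the files, and 9 were not analysed here. The 3 neutrophil markers summed to 10.6 to 20.5 CPM at day 0, 2153 to 2760 at day 4, 575 to 592 at day 12 and 2.16 to 2.96 at 12 days off. The 3 basophil and mast cell markers summed to 1699 to 2001, 260 to 303, 1216 and 1412 to 1807 CPM in those groups, and the 2 macrophage markers to 4.94 to 5.49, 33.6 to 41.5, 54.8 to 55.0 and 3.24 to 3.83. The only megakaryocyte marker in the files, Itga2b, was at 161 to 260, 132 to 136, 621 to 648 and 98.8 to 99.6 CPM in the same order. The only erythroid marker, Epor, was at 7.01 to 14.4, 0.691 to 1.05, 1.19 to 1.28 and 5.15 to 6.24 CPM, and the only T cell marker, Cd3g, at 11.7 to 19.0, 3.83 to 4.34, 15.6 to 16.2 and 16.1 to 27.9. The part of these markers, of the mitochondrial share and of the number of cells in S phase in the values below was not tested. In bulk RNA, fewer cells of a type and less RNA per cell cannot be told apart. The labels do not say whether A and B are separate cultures, so p-values measure the spread between these libraries, which may be technical. Replicates were least alike at 12 days off, where the chi-square per degree of freedom between A and B was 69.8, against 2.87 to 18.2 in the other groups. The median difference of A and B over the 51 genes was 0.17 on the log2 scale in that group and 0.03 at day 12.

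Letters that E2F factors bind were found at 15 of these genes. At day 12 against day 0, 30.0% of all genes were called higher and 33.4% lower. Of the 15, 4 were called higher and 8 lower. Mcm5, Mcm6 and Pola1, from the higher, and Orc1, from the lower, were chosen with their levels known. Their balance is thus not that of the 15. Start regions of these 4 genes are printed because they hold such letters while the RNA levels moved in different directions. They are the 250 bases before the RefSeq start site (GRCm38.p6), with matches to the E2F letters TTTCCCGC, TTTCGCGC, TTTGCCGC or TTTGGCGC, on either strand, in capitals. Orc1 is at chr4:108579204-108579453 on the plus strand and Mcm5 at chr8:75109259-75109508 on the plus strand. Mcm6 is at chr1:128359706-128359955 on the minus strand and Pola1 at chrX:93632156-93632405 on the minus strand. The Orc1 region lies wholly inside the gene span given below (108575705 to 108616030), so its start site is not the first base of that span.
Orc1: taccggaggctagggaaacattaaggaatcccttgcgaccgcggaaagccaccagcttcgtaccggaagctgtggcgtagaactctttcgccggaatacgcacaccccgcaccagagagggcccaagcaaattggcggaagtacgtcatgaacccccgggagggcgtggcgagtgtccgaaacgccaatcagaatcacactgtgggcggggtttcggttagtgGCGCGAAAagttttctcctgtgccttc
Mcm5: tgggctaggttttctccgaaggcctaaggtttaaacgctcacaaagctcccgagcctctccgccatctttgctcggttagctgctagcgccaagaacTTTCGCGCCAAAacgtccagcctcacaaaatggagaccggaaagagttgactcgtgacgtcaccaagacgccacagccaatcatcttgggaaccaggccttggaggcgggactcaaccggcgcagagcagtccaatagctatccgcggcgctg
Mcm6: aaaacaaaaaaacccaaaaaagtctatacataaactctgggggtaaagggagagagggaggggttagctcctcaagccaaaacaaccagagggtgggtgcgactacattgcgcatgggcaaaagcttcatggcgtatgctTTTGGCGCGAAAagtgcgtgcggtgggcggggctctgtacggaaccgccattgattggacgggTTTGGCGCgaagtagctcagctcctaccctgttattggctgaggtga
Pola1: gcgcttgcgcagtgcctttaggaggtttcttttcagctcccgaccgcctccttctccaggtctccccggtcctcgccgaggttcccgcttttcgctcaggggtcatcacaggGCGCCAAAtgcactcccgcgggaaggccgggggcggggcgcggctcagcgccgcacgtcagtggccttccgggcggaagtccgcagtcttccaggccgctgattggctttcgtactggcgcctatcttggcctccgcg
In Mcm5 and in the upstream match of Mcm6, 2 matches on opposite strands overlap and form 1 run of capitals.

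Of the 51 genes, 43 were in the RefSeq promoter table, and 15 of them (34.9%) held these letters between 250 bases before and 50 bases after a start. The share was 4.77% among 10257 genes of the files and 2.60% among all 27025 genes of the table. Licensing genes held 8 of the 15, with matches at Orc1, Orc3, Cdc6, Cdt1, Mcm3, Mcm5, Mcm6 and Mcm7. The polymerase genes Pola1, Pold1, Pold3 and Pole2 held 4 more, and Gins3, Rfc3 and Lig1 the rest. None of the 5 nucleotide supply genes had a match. Genes with the letters and genes without them were called in both directions. At day 12 against day 0, 4 of the 15 were called higher and 8 lower. Of the 28 that were listed without a match, 5 were called higher and 11 lower. The shares over all genes were 30.0% higher and 33.4% lower. Median log2 folds were -0.33 with the letters and -0.15 without, and the 2 sets were not compared by a test. The PU.1 letters GAGGAAGT, on either strand, stood in 2 of the 43 genes (4.65%), against 3.89% of the genes in the files. A match describes letters, not a bound site.

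All 51 genes were well counted. The lowest count in any library was 224, for Gins3, and mean levels ran from 15.8 CPM for Gins3 to 607 CPM for Mcm6. Together they took 0.70% ± 0.020 of counts at day 0, 0.611% ± 0.020 at day 4, 0.688% ± 0.0016 at day 12, 0.749% ± 0.053 at 4 days off and 0.650% ± 0.0014 at 12 days off (SD, n = 2 each). The lowest and the highest of these group shares were thus those of day 4 and of 4 days off. The ratio of the highest to the lowest group mean was 1.25 for Cdc45, the helicase cofactor, 1.63 at the median, and 3.84 for Tk1, the S-phase thymidine kinase. A difference somewhere among the 8 groups was called for 46 of 51 genes, where 83.8% of all genes were called (edgeR, Benjamini-Hochberg adjusted p under 0.05). The 5 not called were Gins3, Dbf4, Fen1, Tipin and Chaf1b. Day 0 was the highest group for 22 of the 51, against 21.5% of all genes. Day 4 was the lowest group for 15 and the highest for none, against 16.6% and 15.7% of all genes, and 12 days off was the lowest for 13, against 22.8%.

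**Figure D1:**
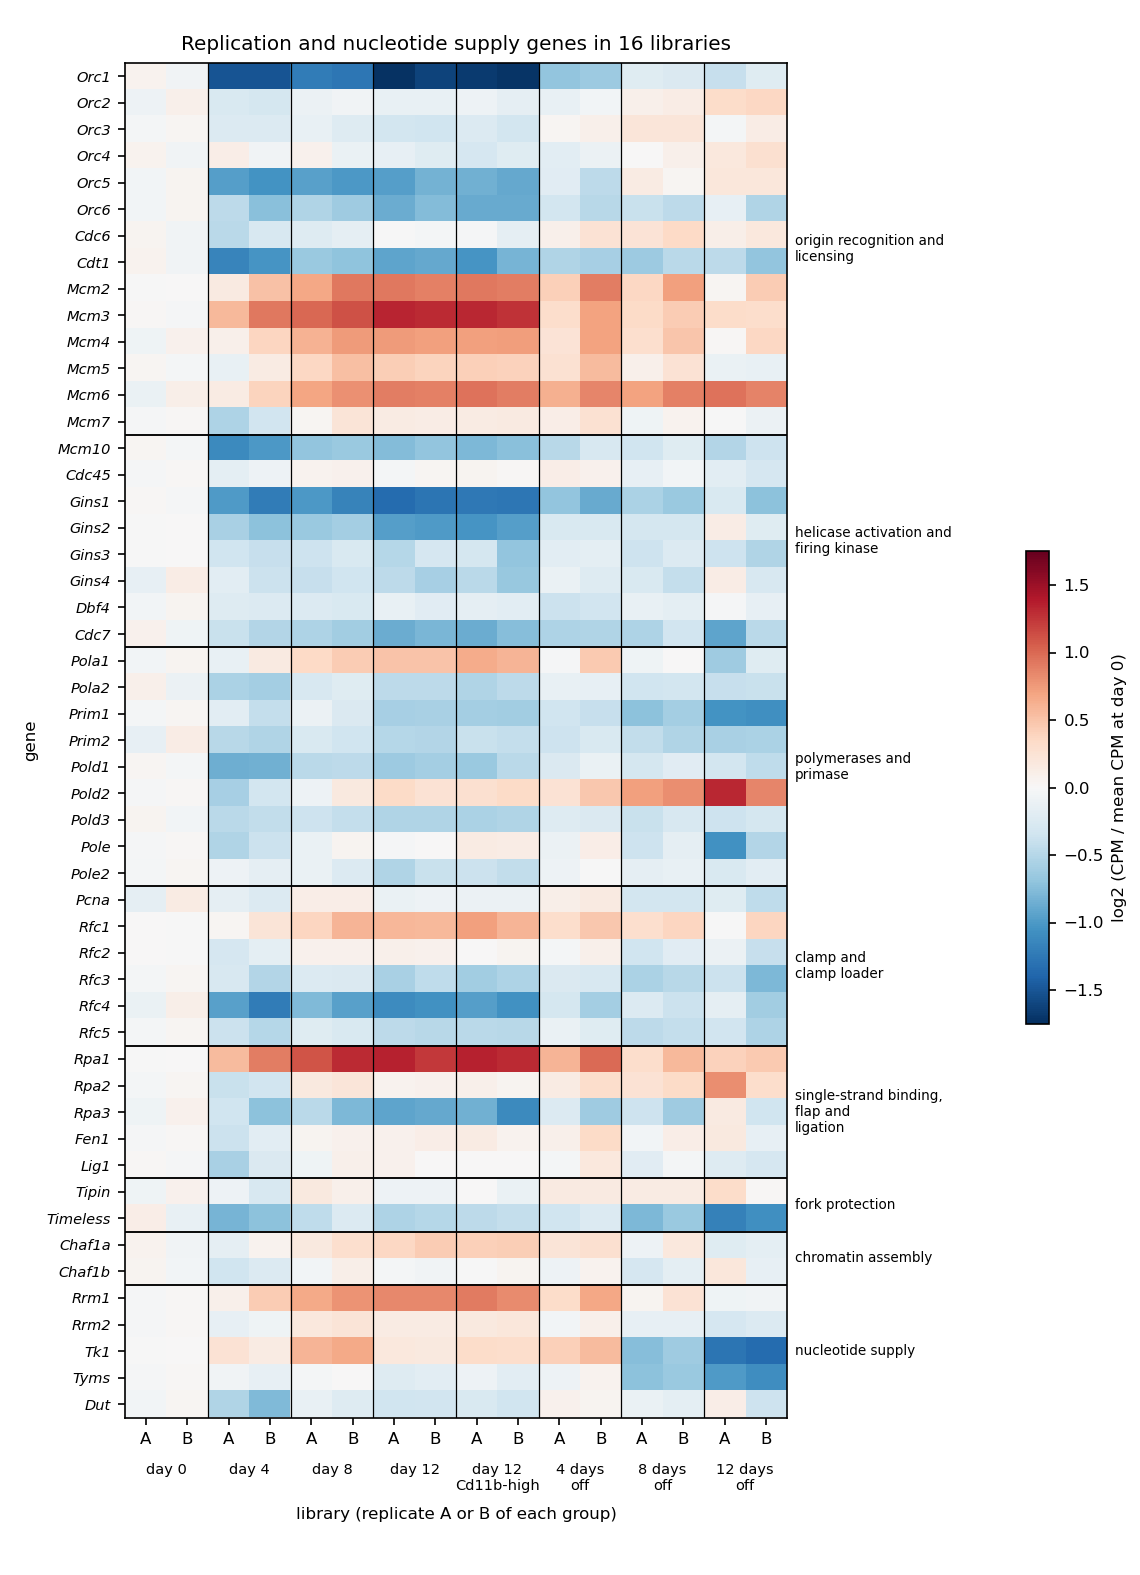
Level of each of the 51 genes in each of the 16 libraries, as log2 of CPM over the gene's mean CPM at day 0 (colour), with genes in rows by role and replicates A and B of each group in columns. Orc1 and Gins1 were below their day 0 level through day 12 while Mcm3 and Rpa1 were above it, and Tk1 was lowest at 12 days off.

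After 4 days of doxycycline, 31 genes were called, 29 of them lower and 2, Mcm3 and Rpa1, higher. Over all genes 59.2% were called, 28.2% higher and 31.0% lower. The median log2 fold of the 51 was -0.29, and that of all genes -0.05. The count of lower genes was 19 without day 0 replicate B or day 4 replicate A. The count of higher genes was 5 with DESeq2 or without day 4 replicate A, 4 with RLE size factors, with the filter of 1 CPM, with a replicate block or in the 4 libraries alone, and 3 without day 0 replicate B or day 4 replicate B.

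By day 8 the balance was less one-sided, with 10 genes called higher and 17 lower (background 57.3% called, 27.0% higher and 30.2% lower). At day 12, 10 were higher and 23 lower than at day 0, where 63.4% of all genes were called, 30.0% higher and 33.4% lower. The median log2 fold was -0.16 for the 51 genes and -0.07 for all genes. The 33 called at day 12 are 64.7% of the list, a share near the background. The 23 lower calls are 45.1% of it and the 10 higher calls 19.6%.

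Between day 4 and day 12, 19 of the 51 genes rose and 4 fell. The background was 27.0% called, 14.7% higher and 12.3% lower, and the medians were 0.15 and -0.01 on the log2 scale. With library size as the only scaling, which moved the median of all genes by -0.14, 8 were higher and 7 lower. Only 1 gene was called without day 4 replicate A, and 6 without day 12 replicate A or without day 12 replicate B.

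**Figure D2:**
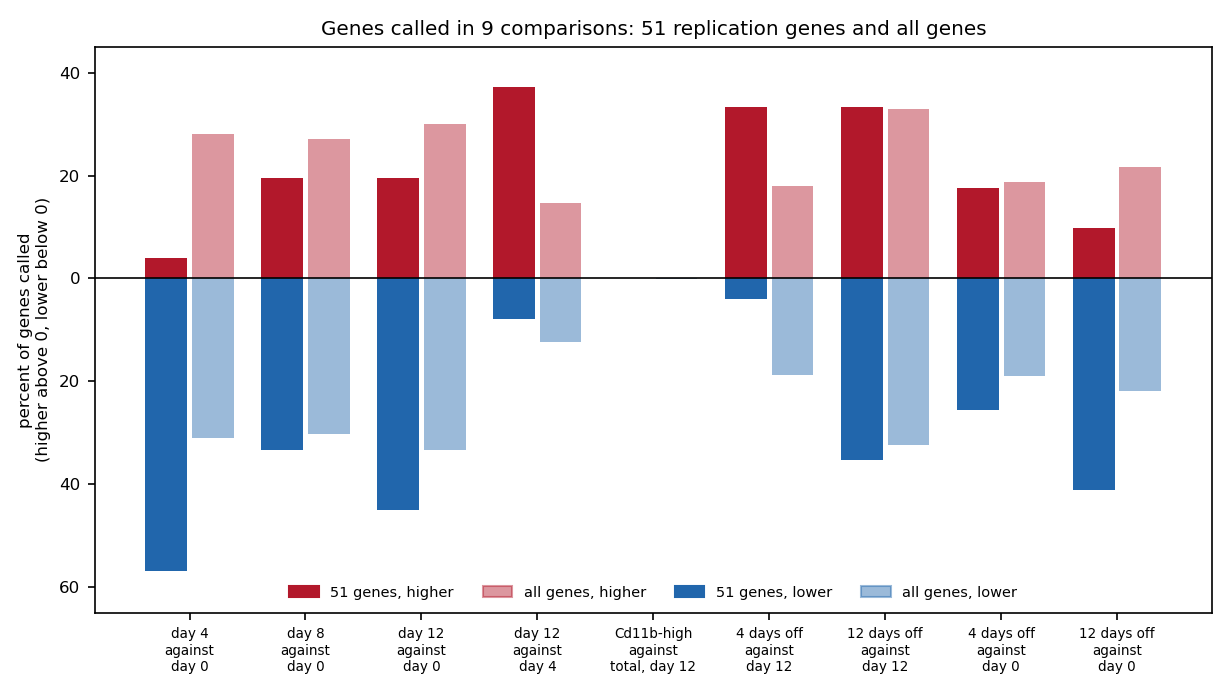
Percent of genes called by edgeR in 9 comparisons, higher above 0 and lower below 0, for the 51 genes (dark bars) and for all 13652 genes (pale bars). The widest gap is at day 4 against day 0, where 29 of 51 genes were lower against 31.0% of all genes, and the bars of the Cd11b-high comparison are at or near 0.

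By day 12 the subunits of the origin recognition complex and of the helicase it loads had moved in opposite directions. At day 12 against day 0, 4 of 6 origin recognition genes fell and none rose, and 5 of 6 Mcm2 to Mcm7 genes rose and none fell. Of all genes, 30.0% were called higher and 33.4% lower. Of all 14 licensing genes, 5 rose and 5 fell. The origin recognition genes that fell were Orc1, Orc5, Orc6 and Orc3, with log2 folds of -1.67, -0.89, -0.81 and -0.33. Orc2 and Orc4, at -0.14 and -0.18, were not called. At day 4 against day 0, 5 of 6 origin recognition genes were called lower. Of the 6 helicase genes 1, Mcm3, was called higher and 1, Mcm7, lower (log2 fold -0.43). The background at day 4 against day 0 was 28.2% higher and 31.0% lower.

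Orc1, the largest subunit and an ATPase of the complex (Entrez 18392, chromosome 4, 108575705 to 108616030), was at 46.2 and 42.4 CPM at day 0 in replicates A and B. It was at 15.5 and 15.6 at day 4, 19.1 and 18.4 at day 8, 13.4 and 14.4 at day 12, and 13.9 and 13.5 in Cd11b-high cells. After withdrawal it was at 27.4 and 28.4, 38.4 and 37.1, and 33.6 and 38.1 CPM at 4, 8 and 12 days off. Every doxycycline library was below every library without the drug. Orc1 was 3.19 times lower at day 12 than at day 0 (log2 fold -1.67, SE 0.11, edgeR adjusted p = 1e-08). At 12 days off it was 2.58 times its day 12 level (edgeR adjusted p = 6.3e-08) and still below day 0, with a log2 fold of -0.31 (SE 0.10, edgeR adjusted p = 0.027). That last call was lost with DESeq2 (adjusted p = 0.071), with RLE size factors (0.055), in a fit of only the 4 libraries compared (0.34), and when day 0 replicate A (0.15) or 12 days off replicate A (0.099) was left out.

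Mcm3, a subunit of the helicase ring (Entrez 17215, chromosome 1, 20802966 to 20820312), had the largest rise at day 12 among the licensing genes. It was at 176 and 171 CPM at day 0, 256 and 327 at day 4, 348 and 376 at day 8, and 435 and 427 at day 12. Cd11b-high cells had 434 and 415 CPM, and the 3 withdrawal groups 214 and 282, 218 and 235, and 217 and 215. The day 8 and day 12 libraries were all above the day 0 and withdrawal libraries. Mcm3 was 2.49 times higher at day 12 than at day 0 (log2 fold 1.32, SE 0.13, edgeR adjusted p = 9.4e-07) and fell by 1.0 on the log2 scale from day 12 to 12 days off (SE 0.13, edgeR adjusted p = 1.2e-05). At 12 days off it had a log2 fold of 0.32 over day 0 and was not called (edgeR adjusted p = 0.066).

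Mcm6, named after its values were seen (Entrez 17219, chromosome 1, 128331575 to 128359705), rose at day 12. Its levels were 347 and 405 CPM at day 0, 696 and 692 at day 12, 578 and 679 at 4 days off, 614 and 690 at 8 days off, and 726 and 689 at 12 days off. The 4 and 8 days off libraries were all below the day 12 libraries, and the 12 days off libraries lay on both sides of them. At 12 days off it was 1.88 times the day 0 level (log2 fold 0.91, SE 0.12, edgeR adjusted p = 3.6e-05), and its log2 fold against day 12 was 0.03 (SE 0.12). Mcm2, Mcm3, Mcm4 and Mcm5 fell between day 12 and 12 days off, with log2 folds of -0.65, -1.0, -0.52 and -0.54. The call of Mcm4 was lost without 12 days off replicate A (log2 fold -0.36, edgeR adjusted p = 0.054) and with the 4 libraries alone (0.05). Mcm7, at -0.19, was not called. Against day 0, Mcm6 was the only one of the 6 called at 12 days off by edgeR as fitted here. Mcm3 was called too with DESeq2 (adjusted p = 0.027), with RLE size factors (0.038), with a filter of 1 CPM (0.032), with a replicate block (0.047) and without 12 days off replicate B (0.027).

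The loading factors did not share 1 pattern. Cdt1, which brings the helicase to origins, had 230 and 210 CPM at day 0, 116 and 119 at day 12, and 161 and 137 at 12 days off, and fell by 0.91 on the log2 scale at day 12. Cdc6, the ATPase that works with Cdt1, was called lower at day 4 (log2 fold -0.37), a call lost without day 0 replicate A (edgeR adjusted p = 0.056) or day 4 replicate A (0.17), and was at -0.02 by day 12.

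**Figure D3:**
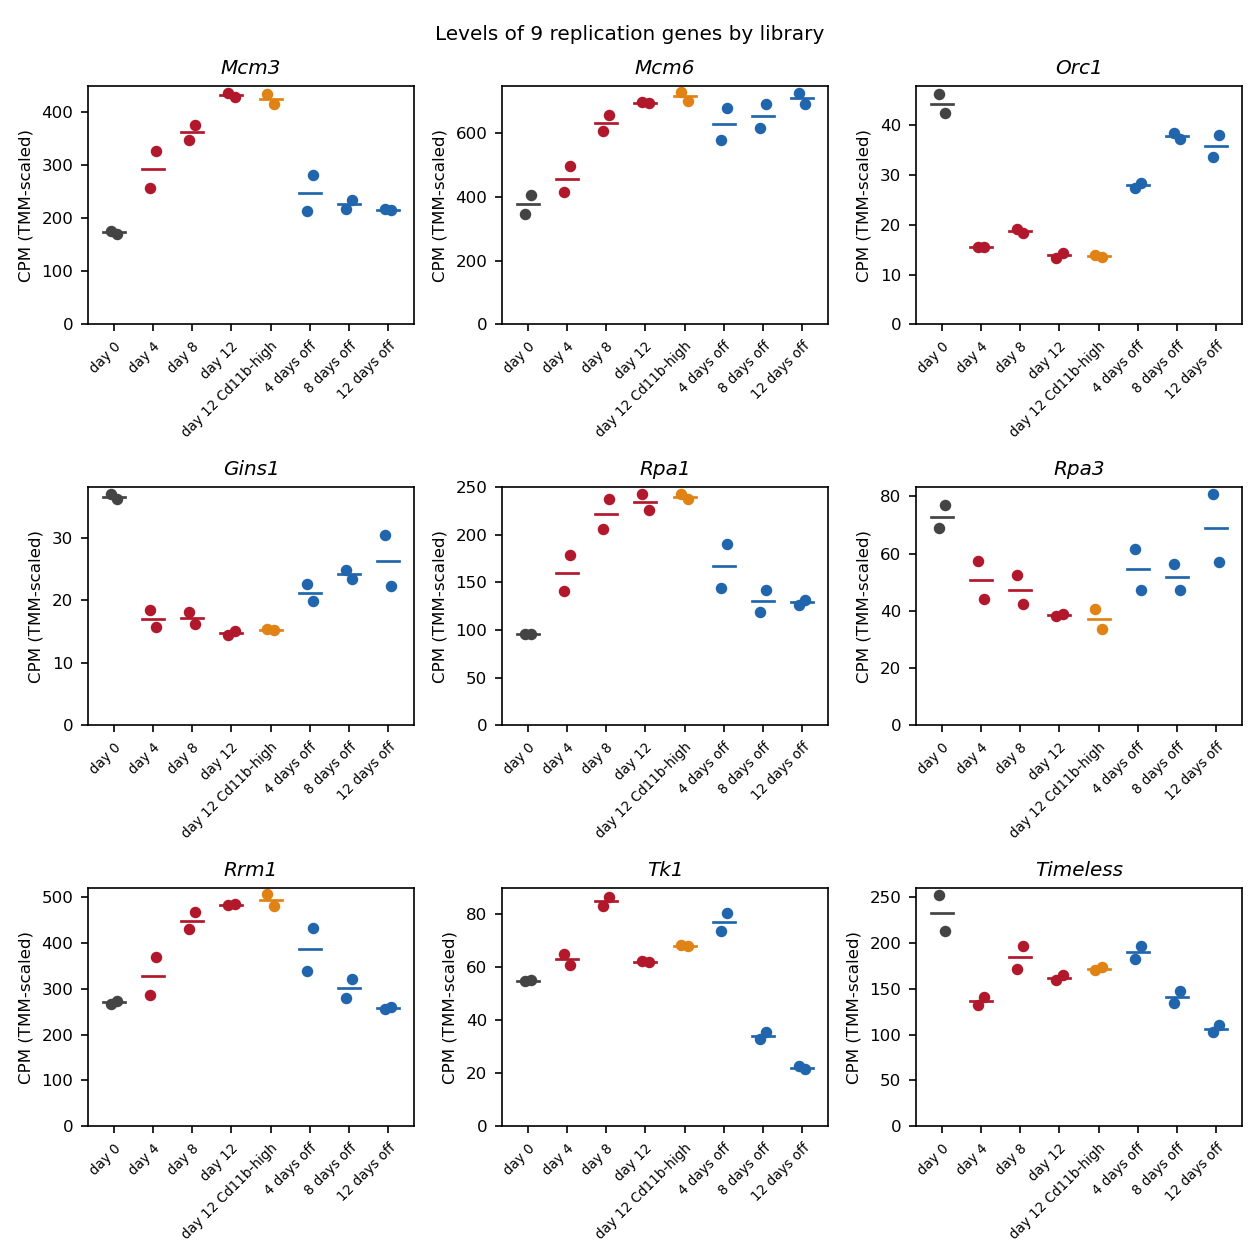
CPM of 9 genes in each library (points, replicates A and B) with the group mean (line), in grey for day 0, red for doxycycline, orange for Cd11b-high cells and blue for withdrawal. Orc1 libraries with doxycycline lie between 13.4 and 19.1 CPM and all others between 27.4 and 46.2, Mcm6 libraries after withdrawal lie between 578 and 726 CPM, and Tk1 ends at 21.5 and 22.6 CPM.

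Of 8 genes that turn the loaded helicase on, 6 (75%) were called lower at day 12 and none higher, where 33.4% of all genes were lower. The 4 GINS genes, whose products ride on the moving helicase, were among the 6. Their log2 folds were -1.31 for Gins1, -0.98 for Gins2, -0.52 for Gins4 and -0.39 for Gins3. The call of Gins3 was lost with DESeq2 (adjusted p = 0.061), without day 0 replicate A (0.062) or B (0.072) and without day 12 replicate A (0.17), and that of Gins4 without day 0 replicate B (0.065). Cdc7, the kinase that fires origins, fell by 0.83 and its partner Dbf4 had a log2 fold of -0.16 with no call. Mcm10, which helps to start the helicase, fell by 0.72 and was lower than day 0 at 12 days off (-0.44), a call lost with the 4 libraries alone (edgeR adjusted p = 0.15). Cdc45 stayed between 70.2 and 92.6 CPM over all 16 libraries.

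Gins1 (Entrez 69270, chromosome 2, 150909556 to 150931280) was at 37.0 and 36.2 CPM at day 0, 18.5 and 15.7 at day 4, 18.2 and 16.3 at day 8, 14.4 and 15.1 at day 12, and 15.4 and 15.2 in Cd11b-high cells. After withdrawal it was at 22.6 and 19.9, 24.9 and 23.4, and 30.4 and 22.3 CPM. The withdrawal libraries lay between the day 12 and day 0 libraries without overlap. Gins1 was 2.48 times lower at day 12 than at day 0 (SE of the log2 fold 0.15, edgeR adjusted p = 2.2e-06) and 1.78 times higher at 12 days off than at day 12 (edgeR adjusted p = 0.00014). It was still below day 0 at 12 days off (log2 fold -0.48, SE 0.14, edgeR adjusted p = 0.014), a call lost with the 4 libraries alone (0.18) and without 12 days off replicate B (0.21) or day 0 replicate A (0.067).

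Gins2 (Entrez 272551, chromosome 8, 120581266 to 120589075) had 52.6 and 53.3 CPM at day 0, 35.7 and 32.3 at day 4, 33.9 and 35.0 at day 8, and 27.0 and 26.7 at day 12. It had 26.0 and 27.0 CPM in Cd11b-high cells, 44.1 and 43.8 at 4 days off, 42.6 and 42.6 at 8 days off, and 58.1 and 45.5 at 12 days off. The fall by 0.98 at day 12 (SE 0.12, edgeR adjusted p = 3.7e-06) and the rise of 0.95 after withdrawal (SE 0.11, edgeR adjusted p = 4.4e-06) were close in size, and the 12 days off libraries overlapped day 0. Exons of Gins2 overlap those of Gse1 over 67.3% of their length, and no source used here says whether the counting used strand, so its reads are uncertain.

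Polymerase genes were mostly lower at day 12, with 6 of 9 called lower and 1, Pola1, called higher. Library size as the only scaling gave 6 lower and 0 higher. Over all genes 33.4% were called lower and 30.0% higher. Pold2 and Pole were not called. The genes of the 3 replicative polymerases did not move as units. Pold1 and Pold3 fell by 0.61 and 0.52 while Pold2 had a log2 fold of 0.29. Pola2 fell by 0.47 while Pola1 rose by 0.50. Gene lengths are 3424, 3002 and 1610 bases for Pold1, Pold3 and Pold2, and 2872 and 5347 for Pola2 and Pola1. The part of library differences and of gene length in these splits was not tested.

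Pola1, the catalytic subunit of polymerase alpha (Entrez 18968, chromosome X, 93304766 to 93632387), was at 48.0 and 51.4 CPM at day 0, 45.5 and 55.5 at day 4, 63.2 and 67.8 at day 8, and 70.2 and 70.0 at day 12. Cd11b-high cells had 77.8 and 74.9 CPM, and the withdrawal groups 49.2 and 68.4, 47.0 and 50.1, and 32.2 and 42.8. Both libraries at 12 days off were below all others. The rise at day 12 had a log2 fold of 0.50 (SE 0.15, edgeR adjusted p = 0.011) and was lost with library size as the only scaling (0.054) and without day 0 replicate A (0.078). Between day 12 and 12 days off Pola1 fell by 0.90 (SE 0.16, edgeR adjusted p = 0.00013).

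Pold1, the catalytic subunit of polymerase delta (Entrez 18971, chromosome 7, 44532744 to 44548815), had 280 and 269 CPM at day 0, 152 and 153 at day 4, 197 and 200 at day 8, and 177 and 182 at day 12. It had 174 and 199 CPM in Cd11b-high cells, 230 and 254 at 4 days off, 222 and 238 at 8 days off, and 220 and 202 at 12 days off. No later library reached the day 0 level. The log2 fold at day 12 was -0.61 (SE 0.10, edgeR adjusted p = 7.9e-05), and that at 12 days off against day 0 was -0.38 (SE 0.099, edgeR adjusted p = 0.0066). The last call was lost without 12 days off replicate B (log2 fold -0.24, edgeR adjusted p = 0.058) and with the 4 libraries alone (0.20).

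Pold2, an accessory subunit of polymerase delta, and Prim1, the primase that makes the RNA start of each fragment, ended in opposite places and are given after their values were seen. Pold2 (Entrez 18972, chromosome 11, 5872180 to 5878256) was at 54.9 and 56.9 CPM at day 0, 37.5 and 44.6 at day 4, 70.4 and 66.5 at day 12, 91.9 and 98.3 at 8 days off, and 140 and 101 at 12 days off. It was 2.16 times its day 0 level at the end (SE of the log2 fold 0.15, edgeR adjusted p = 3e-05). Prim1 (Entrez 19075, chromosome 10, 128015215 to 128030030) had 187 and 195 CPM at day 0, 128 and 128 at day 12, 116 and 127 at 8 days off, and 92.8 and 90.4 at 12 days off. It was 2.09 times lower than at day 0 at the end (log2 fold -1.06, SE 0.10, edgeR adjusted p = 2.1e-06).

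Replication factor C, with 5 genes, is the complex that opens the clamp and places it on DNA. Of Pcna and these 5 genes, 1 rose and 3 fell at day 12, where 30.0% of all genes were called higher and 33.4% lower. Pcna, at 144 and 177 CPM at day 0 and 148 and 151 at day 12, had a log2 fold of -0.10 and was not called. Rfc1, the large subunit, rose by 0.57, and the small subunits Rfc4, Rfc3 and Rfc5 fell by 1.08, 0.50 and 0.47. Rfc2 had a log2 fold of 0.08. Gene lengths are 4720 bases for Rfc1, 1216 for Rfc4, 1215 for Rfc3, 1730 for Rfc5 and 1518 for Rfc2. At day 4, replicates A and B had 208 and 239 CPM for Rfc1, and 33.2 and 27.5 for Rfc4. At day 0 they had 205 and 202, and 59.0 and 68.7. The part of library differences and of gene length in the split of Rfc1 from the small subunits was not tested.

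Rfc1 (Entrez 19687, chromosome 5, 65261852 to 65338617) was at 205 and 202 CPM at day 0, 208 and 239 at day 4, 265 and 308 at day 8, 305 and 302 at day 12, and 335 and 308 in Cd11b-high cells. It was at 251 and 281, 250 and 264, and 202 and 264 CPM in the withdrawal groups, where the last pair overlapped day 0. Its rise at day 12 had an SE of 0.13 (edgeR adjusted p = 0.0012). Rfc4 (Entrez 106344, chromosome 16, 23113948 to 23127730) was at 59.0 and 68.7 CPM at day 0, 33.2 and 27.5 at day 4, 37.4 and 33.1 at day 8, 29.6 and 30.6 at day 12, and 32.9 and 30.5 in Cd11b-high cells. After withdrawal it had 51.8 and 42.4, 54.1 and 49.3, and 57.2 and 42.0 CPM, all above the doxycycline libraries and below day 0. The log2 fold of Rfc4 at day 12 was -1.08 (SE 0.15, edgeR adjusted p = 2.3e-05), and the rise from day 12 to 12 days off was 0.72 (SE 0.15, edgeR adjusted p = 0.00078).

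Replication protein A, the trimer that coats single-stranded DNA, showed the same opposition inside 1 complex. Rpa1, the large subunit, rose by 1.29 at day 12, Rpa3, the small one, fell by 0.91, and Rpa2 had a log2 fold of 0.07 with no call. Replicates of 1 group could also differ in opposite ways. At 4 days off, A and B had 145 and 190 CPM for Rpa1, and 61.6 and 47.2 for Rpa3. At day 0 they had 95.5 and 96.0, and 68.8 and 76.9. The gene lengths of Rpa1 and Rpa3 are 3106 and 638 bases. The part of library differences and of gene length in this opposition was not tested. Of the flap endonuclease Fen1 and the ligase Lig1, which finish lagging-strand fragments, neither was called at day 12 (0.10 and 0.05). Reads of Fen1 are uncertain, since 78.8% of its exonic length overlaps the antisense gene Gm10143.

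Rpa1 (Entrez 68275, chromosome 11, 75300259 to 75348454) was at 95.5 and 96.0 CPM at day 0, 141 and 178 at day 4, 206 and 237 at day 8, 243 and 226 at day 12, and 243 and 237 in Cd11b-high cells. It was at 145 and 190, 119 and 142, and 127 and 132 CPM at 4, 8 and 12 days off, above every day 0 library. It was 2.45 times higher at day 12 than at day 0 (SE 0.15, edgeR adjusted p = 2.3e-06). At 12 days off it was still 1.35 times the day 0 level (log2 fold 0.43, SE 0.14, edgeR adjusted p = 0.024), a call lost with the 4 libraries alone (0.12) and without day 0 replicate A (0.10) or B (0.088).

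Rpa3 (Entrez 68240, chromosome 6, 8255936 to 8259141) was at 68.8 and 76.9 CPM at day 0, 57.3 and 44.3 at day 4, 52.4 and 42.3 at day 8, 38.3 and 39.0 at day 12, and 40.8 and 33.7 in Cd11b-high cells. It was at 61.6 and 47.2, 56.5 and 47.2, and 80.9 and 57.2 CPM after withdrawal. The day 12 libraries were below those of day 0 and of withdrawal, and the 12 days off libraries overlapped day 0. The fall at day 12 had an SE of 0.19 (edgeR adjusted p = 0.00055), and the rise of 0.83 after withdrawal an SE of 0.18 (edgeR adjusted p = 0.001).

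Timeless and Tipin form the complex that steadies the fork. Timeless (Entrez 21853, chromosome 10, 128232063 to 128252941) had 252 and 213 CPM at day 0, 132 and 141 at day 4, 172 and 196 at day 8, 159 and 165 at day 12, and 170 and 174 in Cd11b-high cells. It had 182 and 197 CPM at 4 days off, 135 and 148 at 8 days off and 103 and 110 at 12 days off, the lowest of all libraries. Timeless fell by 0.52 at day 12 (SE 0.11, edgeR adjusted p = 0.00076) and by a further 0.61 from there to 12 days off (SE 0.11, edgeR adjusted p = 0.00021). Its partner Tipin had a log2 fold of -0.09 at day 12, with no call, and of 0.26 from there to 12 days off. That value was called by edgeR in the fit of all libraries and not with DESeq2 or limma-voom (adjusted p = 0.052 in both), RLE size factors (0.057) or the 4 libraries alone (0.21). It was not called without day 12 replicate A or B (0.15 in both), and without 12 days off replicate A the log2 fold was 0.11 (0.36).

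Chaf1a, the large subunit of the chromatin assembly factor that deposits histones behind the fork (Entrez 27221, chromosome 17, 56040416 to 56068026), was at 126 and 115 CPM at day 0, 108 and 126 at day 4, 136 and 148 at day 8, and 154 and 164 at day 12. It was at 161 and 162 CPM in Cd11b-high cells, 141 and 147 at 4 days off, 113 and 136 at 8 days off, and 104 and 107 at 12 days off. Its log2 fold was 0.40 at day 12 (SE 0.11, edgeR adjusted p = 0.0058) and -0.59 from day 12 to 12 days off (SE 0.11, edgeR adjusted p = 0.00032). The day 12 call was lost without day 0 replicate B (0.053) or day 12 replicate B (0.052), and 52.5% of the exonic length of Chaf1a overlaps Ubxn6. Chaf1b was called in none of the 9 comparisons.

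Among the 5 nucleotide supply genes, Rrm1 rose and Dut fell at day 12, and the other 3 with Rrm1 fell between day 12 and 12 days off. With RLE size factors 2 rose and none fell at day 12, and with library size as the only scaling 1 rose and 2 fell. The background was 30.0% higher and 33.4% lower at day 12, and 32.9% and 32.4% between day 12 and 12 days off. Rrm1, the large subunit of ribonucleotide reductase (Entrez 20133, chromosome 7, 102441695 to 102469771), was at 267 and 273 CPM at day 0, 286 and 368 at day 4, 429 and 467 at day 8, 481 and 484 at day 12, and 506 and 480 in Cd11b-high cells. It was at 338 and 432, 279 and 322, and 255 and 260 CPM in the withdrawal groups, the last below day 0 by a log2 fold of -0.07 with no call. The rise at day 12 was 1.79-fold (SE of the log2 fold 0.13, edgeR adjusted p = 7.1e-05). The small subunit Rrm2 had a log2 fold of 0.14 at day 12 and was not called.

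Tk1, the thymidine kinase that salvages thymidine (Entrez 21877, chromosome 11, 117815519 to 117826087), had 54.5 and 54.9 CPM at day 0, 64.9 and 60.7 at day 4, 83.0 and 86.4 at day 8, 62.1 and 61.8 at day 12, and 68.2 and 67.7 in Cd11b-high cells. It had 73.3 and 80.3 CPM at 4 days off, 32.7 and 35.5 at 8 days off and 22.6 and 21.5 at 12 days off. The last 4 libraries were below all others. Tk1 was 2.81 times lower at 12 days off than at day 12 (log2 fold -1.49, SE 0.097, edgeR adjusted p = 9.1e-09) and 2.48 times lower than at day 0 (edgeR adjusted p = 2.2e-07).

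Tyms, the thymidylate synthase, is given after its values were seen (Entrez 22171, chromosome 5, 30038546 to 30073645). It was at 110 and 113 CPM at day 0, 95.5 and 97.9 at day 12, 105 and 117 at 4 days off, 68.0 and 70.9 at 8 days off, and 56.3 and 52.6 at 12 days off. The RNA of Tk1 and of Tyms was thus lowest in the last group, and the making of thymidylate was not measured. Tyms was there 2.05 times lower than at day 0 (log2 fold -1.04, SE 0.096, edgeR adjusted p = 1.3e-06). Dut, which removes dUTP (Entrez 110074, chromosome 2, 125247248 to 125259049), was at 132 and 140 CPM at day 0, 94.8 and 80.0 at day 4, 125 and 117 at day 8, 108 and 108 at day 12, and 114 and 107 in Cd11b-high cells. It was at 144 and 141, 126 and 122, and 148 and 106 CPM after withdrawal, with libraries on both sides of day 0. Its log2 fold at day 12 was -0.34 (SE 0.13, edgeR adjusted p = 0.035), and that call was lost with RLE size factors (0.077), with DESeq2 (0.077) and in every fit that left out 1 library (0.067 to 0.14).

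Cd11b-high cells at day 12 did not differ detectably from total cells in any of the 51 genes. Over all genes edgeR called 2, both lower, which is 0.0146%. None of the 51 had an unadjusted p under 0.05, and the lowest was 0.17. Log2 folds ran from -0.10 to 0.14. DESeq2 and limma-voom also called 0 of the 51. Itgam, the gene of the sort marker, averaged 695 CPM in total cells at day 12 and 912 CPM in Cd11b-high cells.

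After 4 days without doxycycline, 17 of the 51 genes were above day 12 and 2, Mcm3 and Rpa1, below. The background was 36.8% called, 18.0% higher and 18.8% lower, and the median log2 folds were 0.20 for the 51 genes and 0.04 for all. The count called was 29 with library size as the only scaling, which moved the median of all genes to 0.15. It was 7 without day 12 replicate A, and 9 without day 12 replicate B or without 4 days off replicate A. Against day 0, 9 genes were higher and 13 lower at 4 days off (background 37.9%, 18.8% higher and 19.1% lower), with a total of 13 without day 0 replicate A, 12 without day 0 replicate B and 9 without 4 days off replicate B.

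At 12 days off, 17 genes were higher and 18 lower than at day 12. The background was 65.3% called, 32.9% higher and 32.4% lower. By role, licensing genes were higher in 7 cases and lower in 4, helicase activation genes in 4 and 1, and nucleotide supply genes in 0 and 4. Library size as the only scaling gave 4 and 0 for helicase activation, and 1 and 4 for nucleotide supply. All 6 origin recognition genes were called higher, by 0.38 for Orc3 to 1.37 for Orc1. With the 4 libraries alone the calls of Orc3 and Orc6 were lost (edgeR adjusted p = 0.057 and 0.076). In a fit of the 4 libraries alone 9 were higher and 12 lower, and with library size as the only scaling 21 were higher and 14 lower.

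At the end of the course 26 of the 51 genes differed from day 0. Among them 5 were higher (Mcm6, Pold2, Rpa1, Rpa2 and Orc2) and 21 lower at 12 days off, where 43.6% of all genes were called, 21.6% higher and 22.0% lower. The median log2 fold was -0.22 for the 51 and 0.00 for all genes. Of the 9 polymerase and primase genes 7 were lower and 1 higher, and of the 8 helicase activation genes 5 were lower. RLE size factors gave 7 higher and 16 lower, the 4 libraries alone 2 and 5, the fit without day 0 replicate A 3 and 14, and the fit without 12 days off replicate B 9 and 15.

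For 21 genes both libraries at 12 days off lay outside the range of the day 0 and day 12 libraries. The 6 above were Orc2, Orc4, Orc5, Cdc6, Pold2 and Rpa2. The 15 below were Mcm5, Cdc45, Pola1, Prim1, Prim2, Pole, Pcna, Rfc2, Lig1, Timeless, Chaf1a, Rrm1, Rrm2, Tk1 and Tyms, which include both thymidylate genes, both reductase genes and the catalytic genes of polymerases epsilon and alpha. The other 30 lay inside or overlapped. Among all genes 16.9% lay above in this way and 17.2% below. These are positions of libraries, with no test.

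**Figure D4:**
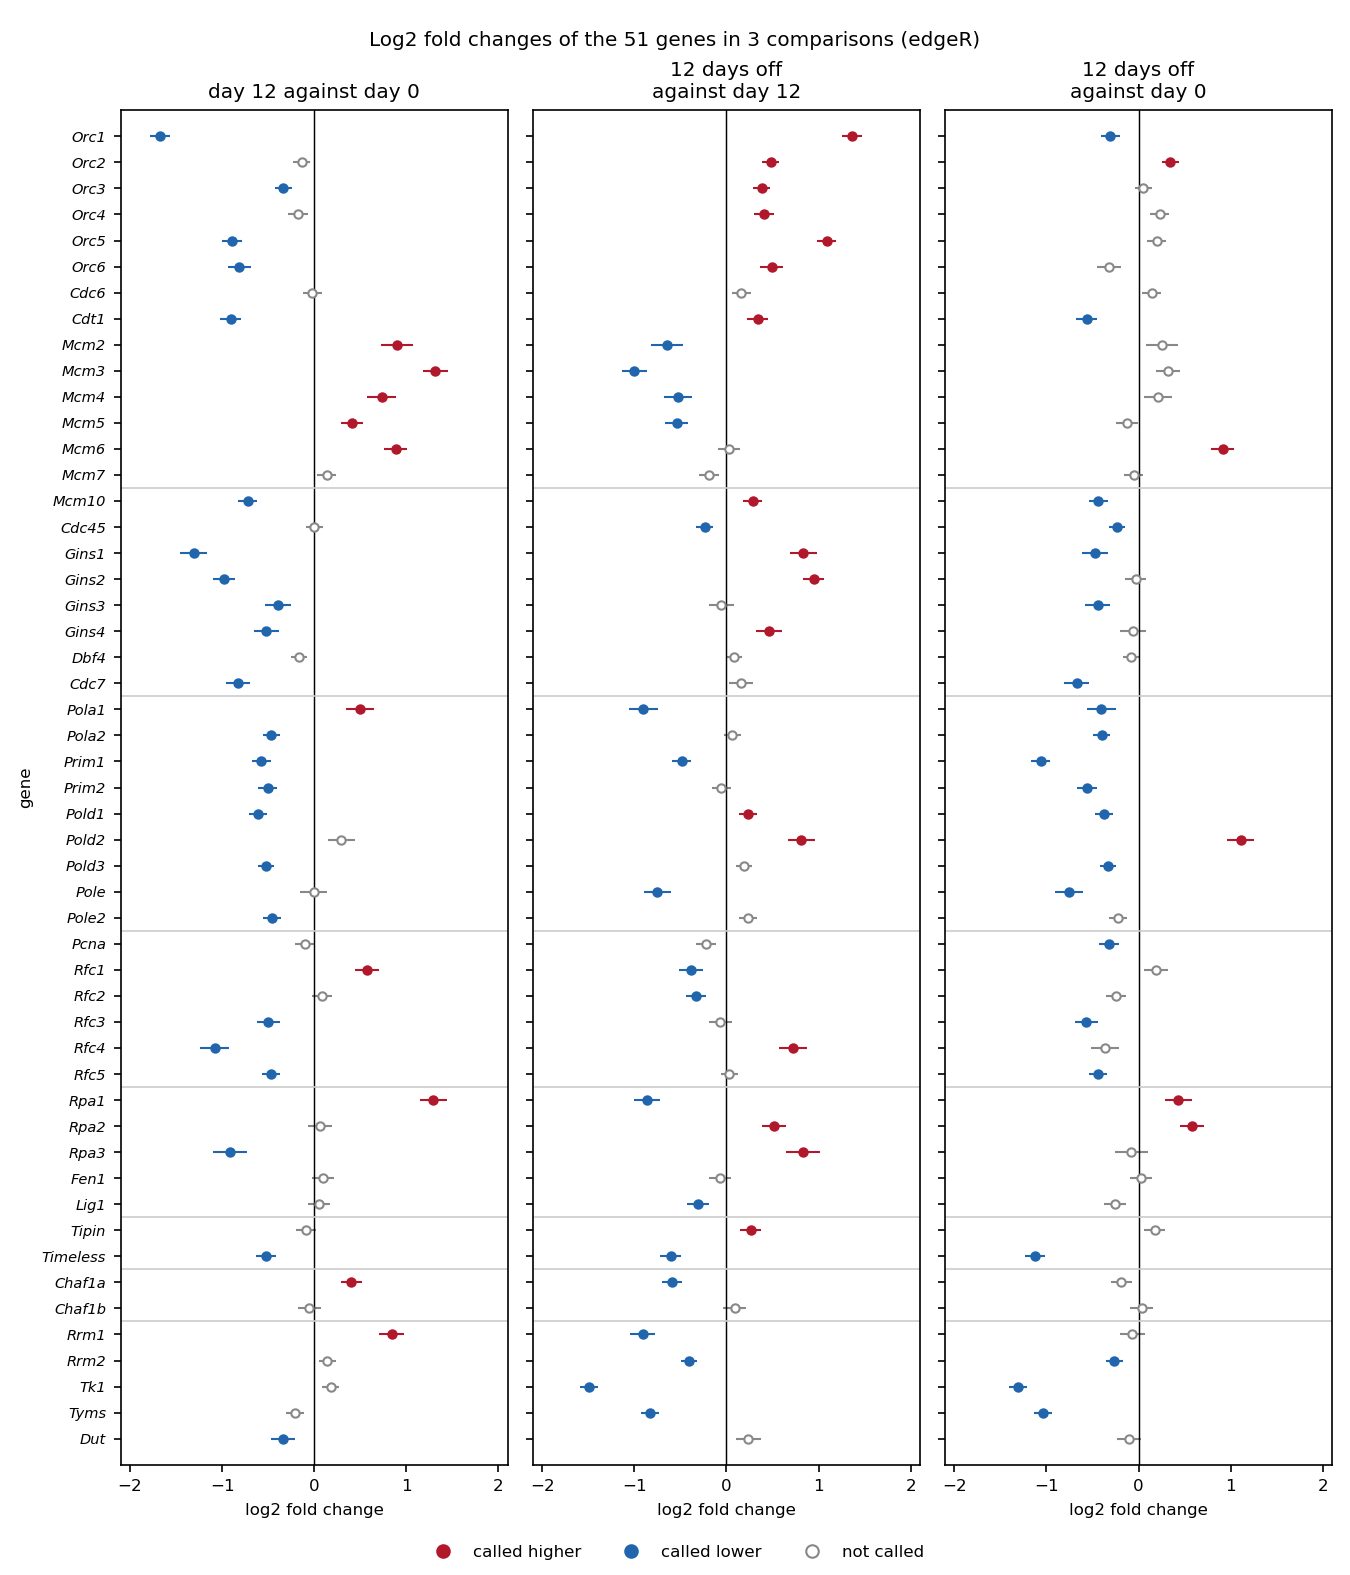
Log2 fold change (edgeR, points) with its standard error (bars) for the 51 genes in rows, in day 12 against day 0, 12 days off against day 12 and 12 days off against day 0, filled red for called higher, filled blue for called lower and open for not called. Orc1, Gins1 and Rfc4 lie left in the first panel and right in the second, Mcm3, Rpa1 and Rrm1 the reverse, and Tk1 and Tyms lie left in both panels of 12 days off.

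Levels per kilobase of gene length show how far the subunits of a complex stood apart. For replication protein A the highest subunit was 3.70 times the lowest at day 0 (Rpa3 at 114 CPM per kb, Rpa1 at 30.8). The ratio was 1.05 at day 8 and 1.24 at day 12, where Rpa1 was highest (75.46) and Rpa3 lowest (60.65). At 12 days off it was 2.60, with Rpa3 highest and Rpa1 lowest again. The subunits of replication factor C stood further apart at day 12, with a ratio of 2.64 at day 0, 4.86 at day 12 and 3.11 at 12 days off. In the origin recognition complex it was 6.75, 10.6 and 5.75, with Orc1 the lowest at day 12 and Orc6 the highest in all groups. Among the helicase genes it was 4.02, 4.28 and 6.26, with Mcm4 lowest in all groups, Mcm7 highest at day 0 and Mcm6 highest in every later group.

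**Figure D5:**
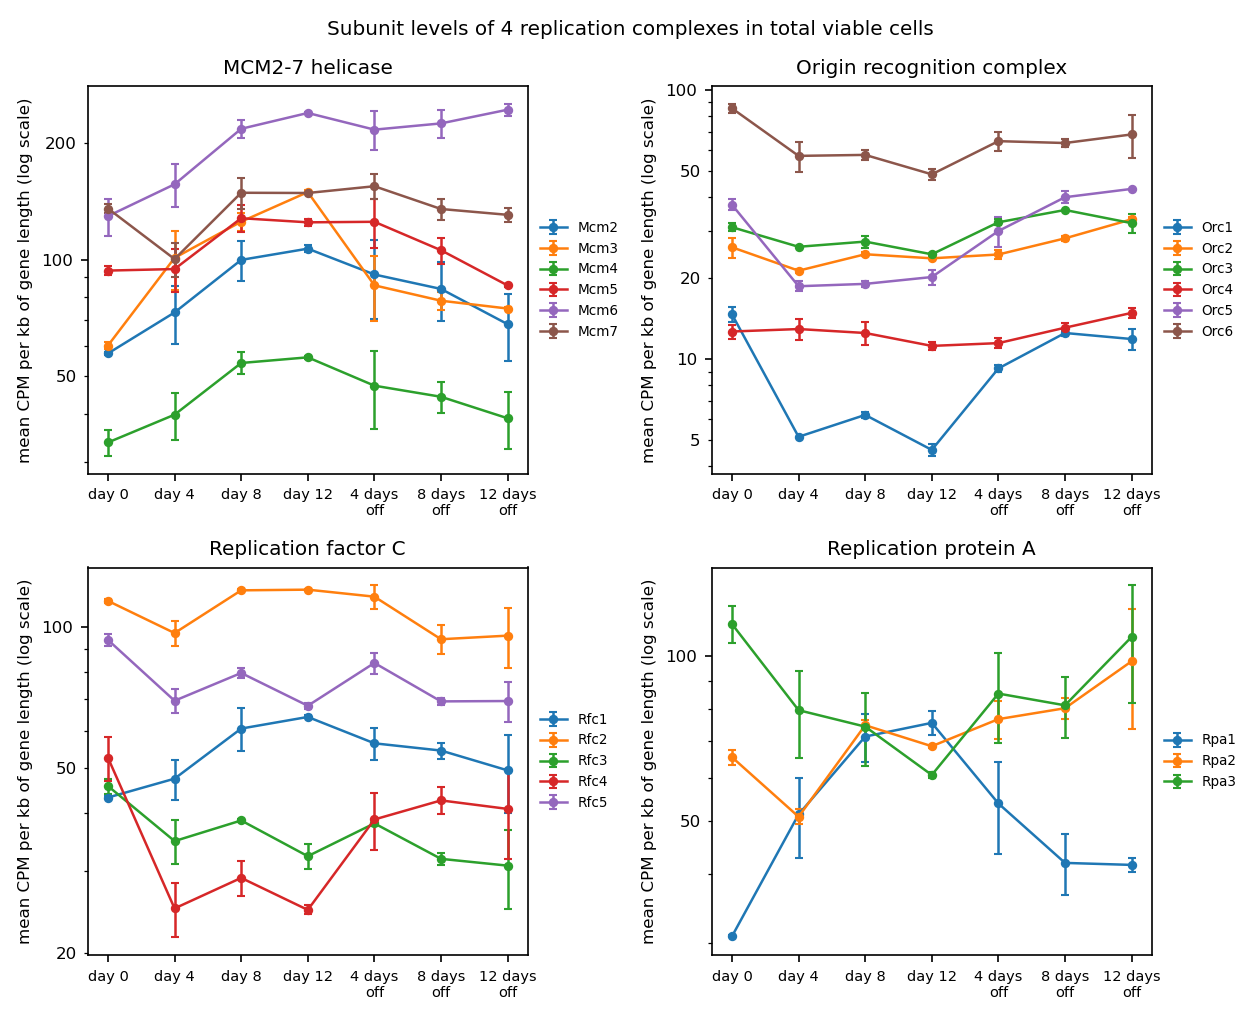
Mean CPM per kilobase of gene length (log axis) of each subunit of 4 complexes in the 7 groups of total viable cells, with bars for the SD of 2 libraries. The 3 replication protein A lines are closest at day 8, and Rpa1 is highest and Rpa3 lowest at day 12. After withdrawal this order is reversed and the lines separate. Orc1 drops furthest among the origin recognition genes.

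Likeness between genes was described by Pearson's r of log2 CPM over the 16 libraries, which share groups, depth and scaling. Such an r holds differences between replicates as well as between groups. Over all 1275 pairs the median r was 0.20 and 479 pairs were below 0. The pair most alike was Mcm2 and Mcm4 (0.99) and the least Mcm3 and Gins2 (-0.93). Their gene lengths are 3371 and 3589 bases, and 2886 and 1038. The part of library differences and of gene length in these values of r was not tested. Within complexes the median was 0.73 for GINS, 0.71 for Mcm2 to Mcm7, 0.66 for the origin recognition genes, 0.39 for replication factor C and -0.10 for replication protein A, in which Rpa1 and Rpa3 had an r of -0.88. Tk1 and Tyms had an r of 0.95.

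Of 35 accessory and checkpoint genes of the fork, 10 rose (28.6%) and 13 fell (37.1%) at day 12, near the 30.0% and 33.4% of all genes, or 13 and 12 with RLE size factors. Recql4, a helicase, and Chek1, the checkpoint kinase, fell by 1.69 and 1.40, and Atrip, the partner of the kinase Atr, by 0.90. Top2a, the topoisomerase that untangles daughter strands, rose by 1.08. At 12 days off against day 12, 9 of these genes rose (25.7%) and 18 fell (51.4%), against 32.9% and 32.4% of all genes, or 10 and 13 with library size as the only scaling.

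Of 20 further deoxynucleotide and folate enzymes, 4 rose (20%) and 10 fell (50%) at day 12. From there to 12 days off, 12 rose (60%) and 6 fell (30%). Over all genes the shares were 30.0% higher and 33.4% lower at day 12, and 32.9% and 32.4% from there to 12 days off. Fpgs, which retains folates in the cell, fell by 2.03 at day 12 and rose by 1.92 after withdrawal, and Dctd, the dCMP deaminase, fell by 1.57 and rose by 2.57. Samhd1, which degrades dNTPs, rose by 1.08 and fell by 0.96, and the kinase Cmpk1 rose by 1.0 and fell by 0.82. Of 18 genes of de novo purine and pyrimidine synthesis, 3 rose (16.7%) and 8 fell (44.4%) at day 12, or 1 and 8 with library size as the only scaling. From day 12 to 12 days off 13 rose (72.2%) and 2 fell (11.1%). Dhodh, a pyrimidine enzyme of mitochondria, fell by 0.94 and rose by 1.69. Impdh1 and Prps1, enzymes of purine and phosphoribosyl synthesis, fell by 0.63 and 0.71, and Adssl1 rose by 0.82.

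The E2F factors and G1/S cyclins were mostly higher at day 12, with 14 of 23 called higher (60.9%) and 4 lower (17.4%), against 30.0% and 33.4% of all genes. At 12 days off against day 12, 4 were higher (17.4%) and 16 lower (69.6%), against 32.9% and 32.4%. Rb1, the pocket protein that restrains E2F, rose by 2.11 and fell by 1.26. The cyclin gene Ccne1 rose by 1.78 and fell by 2.92, the repressor gene E2f8 rose by 1.64 and fell by 2.09, and E2f5 fell by 1.80 and rose by 2.25. Of 30 mitosis genes, 11 rose (36.7%) and 4 fell (13.3%) at day 12, so that 50% were called where 63.4% of all genes were, and 10 rose and 8 fell with library size as the only scaling. From day 12 to 12 days off 6 rose (20%) and 14 fell (46.7%). Cdc25b, Prc1, Bub1b and Kif23, which act at mitotic entry, the spindle and cell division, rose by 1.60, 1.33, 0.94 and 0.83 at day 12. They fell by 0.82, 1.12, 0.50 and 1.35 after withdrawal.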

How the data were processed

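The authors deposited unnormalised counts of reads by Entrez number, in 1 file a library, with 1 gene length column of another kind, in bases, identical across files. The submitters' processing notes name featureCounts, edgeR, limma and mm10, without versions. The aligner and the strand setting are not given in the sources used here. A GRCm38.p6 gene table gave symbols for 13216 of the 13652 Entrez numbers.

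After TMM scaling, edgeR 4.0.16 (R 4.3.3, limma 3.58.1) fitted every library together with a mean for each group, and its robust, two-sided quasi-likelihood F test was used. There were 8 residual degrees of freedom, and the common coefficient of variation between replicates was 10.9%. The filter on low counts removed 0 genes. P-values were adjusted by Benjamini-Hochberg over all 13652 genes in each of 9 comparisons and in 1 test of any difference, and a gene was called under 0.05. Dividing the absolute log2 fold by the root of F gave its standard error. The script was checked on simulated counts. With totals of 12962801 to 26509803 counts and at least 224 counts for each of the 51 genes in every library, the relative counting error of these 51 is below that 10.9%.

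The letters A and B were not used to pair libraries. Over all genes, only 8 of 28 pairs of groups had A minus B differences with a correlation above 0.1. The correlation over the 51 genes alone is not given here, and some of them differed alike in several groups. Mcm2 had 258 and 359 CPM in A and B at 4 days off, and 198 and 262 at 12 days off. Rpa3 had 61.6 and 47.2, and 80.9 and 57.2, in the same order. At day 12 Mcm2 had 365.4 and 354.5 CPM, and Rpa3 38.3 and 39.0. DESeq2 1.42.0, limma-voom, other scalings and filters, a replicate block, the 4 libraries alone and fits without 1 library were alternatives. Promoters came from RefSeq (GRCm38.p6), which had 43 of the 51 genes.

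In each role group, the per-library values are given for the called genes with the largest rise and fall at day 12 against day 0 and the largest change at 12 days off against day 12. From each other list, 4 genes with the lowest adjusted p at day 12 against day 0 are given. The genes and lists were chosen with earlier results of these data known, and no list was tested as a set.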

Additional observations from a re-analysis of the deposited data

How the results depend on the processing

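No log2 fold of the 51 genes that was called changed sign under any alternative. The number of genes called moved by over 1.5 times under several of them. With library size as the only scaling it was 15 at day 12 against day 4 and 29 at 4 days off against day 12. In a fit of the 4 libraries compared it was 21 at 12 days off against day 12 and 7 at 12 days off against day 0. Without each library in turn, the counts ran from 22 to 26 (day 4 against day 0), 19 to 24 (day 8 against day 0), 29 to 31 (day 12 against day 0), 1 to 18 (day 12 against day 4), 7 to 17 (4 days off against day 12), 26 to 34 (12 days off against day 12), 9 to 20 (4 days off against day 0) and 17 to 30 (12 days off against day 0). The count moved by over 1.5 times without 1 library at day 12 against day 4, 4 days off against day 12, 4 days off against day 0 and 12 days off against day 0, as the report gives by library. The counts ran from 44 to 51 for any difference and were 0 for Cd11b-high against total cells. In these fits the lone library of a group is assumed to vary like the others. With a replicate block the counts were 33, 28, 33, 24, 21, 35, 23 and 29 in the same order, 47 for any difference and 0 for Cd11b-high cells. For Cd11b-high cells, all genes called were 2 with edgeR, 15 with DESeq2, 1 with limma-voom, 3 with the replicate block and 313 with the 4 libraries alone. The cause of these shifts was not tested. Some small folds were called, such as that of Cdc45 at 12 days off against day 0 (log2 fold -0.235), a call lost with DESeq2 and with RLE size factors. With 2 libraries a group, other small folds may have been missed.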
